A study of Mus musculus with 15 samples.

Results

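Mest, Dlk1, Nnat and Snurf are imprinted genes, and they were followed through 15 single Tomato+ cells of inguinal white fat, taken from adult Prrx1-CreERT;Tomato mice on C57BL/6. They are 4 of the 8446 rows of the table, picked by gene symbol with their values over these same cells known, so their own levels are given as a description. In these mice a Cre recombinase that tamoxifen activates is driven by Prrx1, the gene of a homeobox factor of limb and skeletal mesenchyme, and recombination switches on the Tomato reporter for good. Tamoxifen was given once daily for 3 days at 2 mg for each 30 g of mouse, and Tomato+ cells were released from the fat with collagenase II, sorted and picked singly under a fluorescence microscope. All cells belong to 1 group with 1 library per cell. No animal is named, so how many mice the cells came from is unknown. The cells count as 1 sample, and no test between conditions exists. The cells carry their numbers from the labels, 1 to 15.

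Imprinted genes are read mainly from the copy inherited from a single parent, with the other copy kept silent by DNA methylation or by a non-coding RNA set in the germ line. Many of them are high in the fetus and in young progenitor cells and are turned down after birth. All 4 genes are read from the paternal copy. Mest encodes a membrane enzyme of the alpha/beta-hydrolase fold that is known from expanding fat. Dlk1, also called Pref-1, is a surface protein with EGF repeats that holds preadipocytes undifferentiated. Nnat encodes neuronatin, a small membrane protein of the endoplasmic reticulum that is known from the brain and also occurs in fat. Snurf is the upstream reading frame of the Snurf-Snrpn transcript, whose downstream frame encodes a small nuclear ribonucleoprotein subunit. The values do not separate the parental copies, so imprinting itself was not measured.

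The genes lie on 4 chromosomes. In GENCODE M21 on GRCm38, Mest (ENSMUSG00000051855) is on the plus strand of chromosome 6 from 30723547 to 30748465. Dlk1 (ENSMUSG00000040856) is on the plus strand of chromosome 12 from 109452823 to 109463336. Nnat (ENSMUSG00000067786) is on the plus strand of chromosome 2 from 157560078 to 157562522. Snurf (ENSMUSG00000102627) is on chromosome 7, minus strand, from 59995449 to 60005049.

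The promoters are shown because CpG methylation is a mark that separates the parental copies at imprinted genes. Whether it does so within the windows printed here is not shown. They are RefSeq's 300 bases on GRCm38.p6, from 250 bases before a start to 50 after it, 5′ to 3′, with every CpG in capitals. They cover chr6:30737800-30738099 on the plus strand for Mest, chr12:109452573-109452872 on the plus strand for Dlk1, chr2:157559828-157560127 on the plus strand for Nnat and chr7:60005150-60005449 on the minus strand for Snurf.
Mest: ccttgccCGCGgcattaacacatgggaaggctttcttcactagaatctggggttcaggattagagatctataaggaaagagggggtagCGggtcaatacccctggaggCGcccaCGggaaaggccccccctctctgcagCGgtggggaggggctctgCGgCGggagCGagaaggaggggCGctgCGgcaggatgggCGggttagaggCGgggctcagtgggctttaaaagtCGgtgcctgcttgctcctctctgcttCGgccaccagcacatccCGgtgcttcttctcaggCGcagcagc
Dlk1: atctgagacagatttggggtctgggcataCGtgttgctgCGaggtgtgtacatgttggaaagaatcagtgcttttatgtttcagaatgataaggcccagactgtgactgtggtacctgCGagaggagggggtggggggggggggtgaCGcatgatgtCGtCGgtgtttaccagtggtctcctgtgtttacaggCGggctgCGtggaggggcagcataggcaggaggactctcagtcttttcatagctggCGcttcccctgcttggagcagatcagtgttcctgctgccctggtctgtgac
Nnat: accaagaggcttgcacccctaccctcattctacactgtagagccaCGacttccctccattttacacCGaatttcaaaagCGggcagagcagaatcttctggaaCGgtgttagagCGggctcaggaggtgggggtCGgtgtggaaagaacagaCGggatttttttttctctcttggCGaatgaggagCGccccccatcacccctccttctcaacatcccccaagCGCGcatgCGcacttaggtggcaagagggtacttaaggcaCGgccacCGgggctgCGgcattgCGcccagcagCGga
Snurf: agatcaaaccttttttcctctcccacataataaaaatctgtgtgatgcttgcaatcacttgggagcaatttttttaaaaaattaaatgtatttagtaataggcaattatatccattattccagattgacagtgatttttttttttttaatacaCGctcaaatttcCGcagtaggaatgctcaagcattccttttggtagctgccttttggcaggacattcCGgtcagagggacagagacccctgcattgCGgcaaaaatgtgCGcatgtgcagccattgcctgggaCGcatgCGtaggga
The Mest and Nnat windows each hold 17 CpG, a count that 31.4% of the 32851 RefSeq promoter windows reach. The Dlk1 window holds 9, a count that 45.8% of windows reach, and the Snurf window holds 7, the median of all windows. Mest has further starts in the table, of which the window at chr6:30733256-30733555 holds 8 CpG. Methylation was not measured in these cells.

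The palindrome CGCATGCG, the core of the motif bound by the factor Nrf1, occurs in the Nnat and Snurf windows and not in the Mest and Dlk1 windows printed above. It was searched on both strands, which read the same, and it was chosen after the sequences had been seen. It starts at base 226 of the Nnat window and at base 287 of the Snurf window, and 615 of the 32851 windows (1.87%) hold it. The surrounding bases follow, with the palindrome in capitals.
Nnat, bases 216 to 243: cccccaagcgCGCATGCGcacttaggtg
Snurf, bases 277 to 300: ttgcctgggaCGCATGCGtaggga
A match of letters is a description and shows no binding, and a link to the levels of Nnat and Snurf was not tested.

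The deposited values are read as log2(FPKM + 1) and are given on that scale unless FPKM is named. FPKM is the number of fragments per kilobase of transcript, scaled to the fragments of the library. A cell is said to carry a gene at 1 FPKM or more. Quantile normalization had given all cells nearly 1 distribution of values above 0.2, so that 4369 rows reach 1 FPKM in each cell. Above 0.2, equal values in different cells mean nearly equal ranks. At a cell's lowest value they do not, since Mest at 0 had rank 7386 in cell 2 and 6871 in cell 15. Between 930 and 1974 rows stood at a cell's lowest value, with a median of 1385 and the largest numbers in cells 11, 14 and 1. Read depth is unknown, and Tbp, a transcription factor that every cell uses, was carried in only 3 cells, so a value near 0 does not show absence. The stromal markers Cd34 and Pdgfra were carried in 15 and 14 cells, with Pdgfra at 0.20 in cell 13.

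All 4 genes were below 1 FPKM in most cells, and each gene stood well above all other cells in 1 cell. That cell was cell 9 for Mest and Dlk1 and cell 12 for Nnat and Snurf. None of the 4 was carried in 8 or more cells, a breadth that 3949 of all 8446 rows (46.8%) reached. Since the genes were chosen with these values known, nothing is read from that count. The same holds for the maxima that are set below beside those of rows carried in as many cells.

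Mest lay at 0 in 8 cells, had a median of 0 and reached 11.58 in cell 9, which is 3068 FPKM. It was carried in 3 of 15 cells (20.0%, exact 95% Clopper-Pearson interval 4.33% to 48.1%). Beside cell 9 these were cell 10 (4.42) and cell 1 (3.06). The cells just below the threshold were cell 8 at 0.56 and cell 6 at 0.43. In cell 9 Mest held rank 18 among all rows, and it stood 7.16 above cell 10. Of the 832 rows that were carried in 3 cells, Mest had the highest maximum, against a median maximum of 5.14.

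Dlk1 had a median of 0.38 and the most gradual pattern of the 4. It was carried in 6 of 15 cells (40.0%, interval 16.3% to 67.7%). Cell 9 had 8.24, which is 301 FPKM. Cell 5 had 5.62, cell 11 had 4.25, cell 12 had 2.70, cell 10 had 1.68 and cell 6 had 1.53. The next cell was cell 1 at 0.66, and 5 cells were at 0. The step from cell 9 down to cell 5 was 2.62, and 34 of the 679 rows carried in 6 cells (5.01%), Dlk1 included, had a maximum as high. Dlk1 was thus spread over cells that otherwise differ, as the marker lists below show.

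Nnat was listed above 0 in 12 cells but at a low level in most of these, with a median of 0.96. It was carried in 7 of 15 cells (46.7%, interval 21.3% to 73.4%). The highest value was 11.17 in cell 12, which is 2298 FPKM and rank 29 of that cell. Of the other carrying cells, cell 15 had 4.19, cell 10 had 3.49, cell 14 had 2.72, cell 11 had 1.64, cell 3 had 1.5 and cell 2 had 1.13. Cell 9 lay just below the threshold at 0.96, and cells 4, 5 and 8 were at 0. Cell 12 stood 6.98 above cell 15, and none of the other rows among the 495 carried in 7 cells reached as high a maximum.

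Snurf was carried in 4 of 15 cells (26.7%, interval 7.79% to 55.1%). Cell 12 had 9.06, cell 5 had 4.09, cell 11 had 2.03 and cell 2 had 1.89. No other cell came near the threshold, and 9 cells were at 0. The value in cell 12 is 534 FPKM and rank 225 of that cell. Of the 753 rows carried in 4 cells, 10 (1.33%), Snurf included, had a maximum as high. The identity of the row is uncertain, because all 216 exonic bases of its only annotated transcript also belong to Snrpn on the same strand, and the sources used here do not state how shared reads were assigned. Snrpn was not analysed here. FPKM divides by transcript length while the library kit reads 3′ ends, so Snurf with 216 bases cannot be ranked against the longer genes by FPKM. The intervals on shares of cells cover counting error only.

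**Figure D1:**
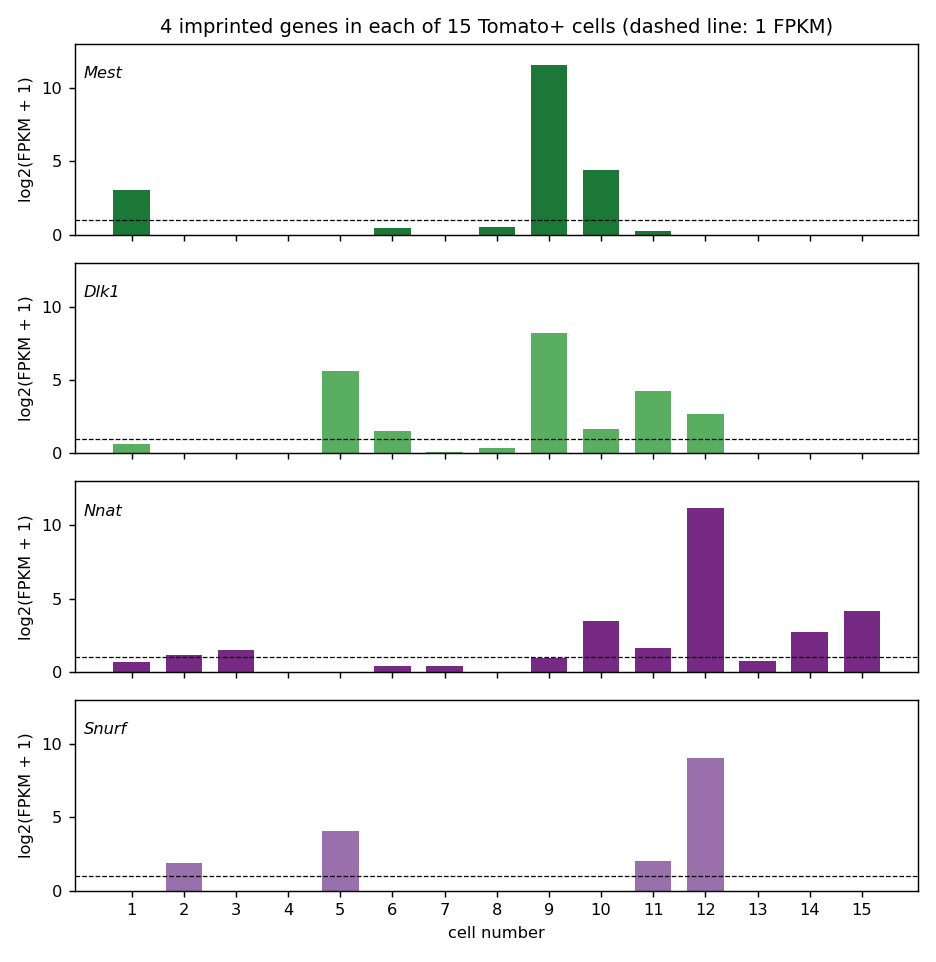
Log2(FPKM + 1) of Mest, Dlk1, Nnat and Snurf (1 panel each) in cells 1 to 15, 1 bar per cell, with the threshold of 1 FPKM as a dashed line. Mest (11.58) and Dlk1 (8.24) stand highest in cell 9, and Nnat (11.17) and Snurf (9.06) in cell 12.

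No cell carried all 4 genes. Cells 10, 11 and 12 carried 3 of them, and cells 2, 5 and 9 carried 2. Cells 1, 3, 6, 14 and 15 carried 1, and cells 4, 7, 8 and 13 carried none. Cell 12 lacked Mest (0), cell 10 lacked Snurf (0.00) and cell 11 lacked Mest (0.23). At 5 FPKM or more, cell 12 still held 3 genes, cells 5, 9 and 10 held 2, and 7 cells held none. Mest and Snurf shared no cell at either threshold.

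Over the 15 cells Mest and Dlk1 were the most alike of the 6 pairs by rank, with a Spearman rho of 0.56 and a Pearson r of 0.66. Of the 7424 other rows carried in at least 3 cells, 2.48% were as like Mest as Dlk1 was, and 1.99% were as like Dlk1 as Mest was. These shares were 9.25% and 8.35% for Dlk1 and Snurf, and 20.5% and 18.7% for Nnat and Snurf. For the remaining pairs they lay between 50.4% and 77.1%. The genes were chosen with these values known, so nothing is read from the shares. The pair shared only cells 9 and 10 at 1 FPKM or more, and cell 9 alone at 5 FPKM. With all values under 1 FPKM set equal, rho was 0.36, so the rank likeness rests in part on values under the threshold. The plot of Mest against Dlk1 shows 4 Dlk1-carrying cells along the bottom, without Mest.

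Dlk1 and Snurf had a rho of 0.38 and an r of 0.31, and shared cells 5, 11 and 12. Of the 4 Snurf-carrying cells, 3 also carried Dlk1. Nnat and Snurf had a low rho (0.25) but the highest r of the 6 pairs (0.74), and both peak in cell 12. They shared cells 2, 11 and 12 at 1 FPKM or more. The other 3 pairs had rho of 0.0019 (Mest and Nnat), 0.00 (Dlk1 and Nnat) and −0.19 (Mest and Snurf). The cells share a sort, a kit and a normalization, and many hold ties at 0, so these coefficients over 15 cells are descriptions only.

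**Figure D2:**
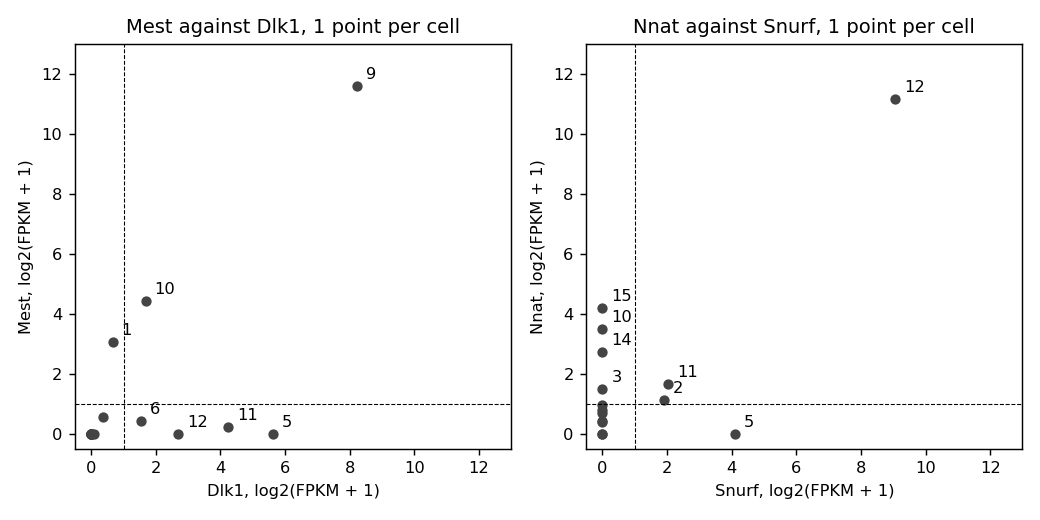
Log2(FPKM + 1) of Mest against Dlk1 (left) and of Nnat against Snurf (right), 1 point per cell, with cell numbers beside the points that reach 1 FPKM (dashed lines) on an axis. Cell 9 stands alone at the top right of the left panel and cell 12 at the top right of the right panel.

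The neighbouring genes of the same imprinted domains were compared next. The Dlk1 domain on chromosome 12 also holds Meg3, Rian and Mirg, long non-coding RNAs read from the maternal copy. Meg3 lies 77665 bases beyond Dlk1. It was carried in 14 cells, of which cell 11 had 9.74, cell 9 had 9.61, cell 7 had 8.80 and cell 10 had 8.34. Rian was carried in 7 cells, and cell 11 had 6.69, cell 10 had 5.43, cell 5 had 4.79, cell 9 had 4.70 and cell 7 had 4.63. Mirg was carried in cells 10 (7.33), 11 (3.83) and 9 (2.36).

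All 6 cells that carried Dlk1 carried Meg3, as 14 of all 15 cells did. Of these 6 cells 5 carried Rian, and the 3 cells with Mirg were among the 6. Dlk1 had a rho of 0.47 with Meg3, 0.61 with Rian and 0.51 with Mirg over 15 cells, against 0.09 with Yy1, a nearby transcription factor gene that is not imprinted. Meg3 and Rian were more alike, at 0.81. The levels did not run in parallel in every cell, since cell 7 had Meg3 at 8.80 and Rian at 4.63 with Dlk1 at 0.08. Cell 5 had Dlk1 at 5.62 with Meg3 at 4.47. Another neighbour, Wars, which encodes a transfer RNA synthetase, was carried in 4 cells and highest in cell 7 (4.71).

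The Snurf domain on chromosome 7 holds Ndn, a paternally expressed gene for the growth suppressor necdin, the maternally expressed ubiquitin ligase gene Ube3a (imprinted in neurons) and the non-coding host gene Snhg14. Ndn was carried in 13 cells, from 2.99 to 7.45. Cells 12 (0.66) and 13 (0.30) did not reach 1 FPKM. Thus the cell with the highest Snurf lacked Ndn, and cell 5, with the second-highest Snurf, had the lowest Ndn of the carrying cells (2.99). Ndn had a rho of −0.43 with Snurf. Ube3a was also carried in 13 cells and was highest in cell 12 (8.60), with a rho of 0.47. Snhg14 was carried in 9 cells, was at 0.00 in cell 12, and had a rho of 0.01 with Snurf. Of the domain's other genes, Cyfip1, a partner of the fragile X protein, was carried in 12 cells, Nipa2 and Tubgcp5 in 3 and Atp10a in 1.

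Nnat lies wholly inside Blcap on the opposite strand, with no exonic base in common. Blcap, a gene for a small membrane protein, was carried in cells 3 (3.62), 2 (2.98) and 13 (2.19) and was at 0.00 in cell 12, where Nnat peaked. Nnat had a rho of 0.11 with Blcap and −0.14 with the splicing-related gene Ctnnbl1, which was carried in 7 cells. Rprd1b and Tgm2 were carried in 3 and 5 cells and were highest in cells 8 and 4. The Nnat peak was therefore not shared by the neighbours measured here. Copg2, a coat protein subunit gene, runs against Mest from the other side and overlaps its end by 912 exonic bases, 23.1% of the exonic bases of Mest. It was carried in cell 9 only (2.47). Strandedness of the counting is not stated, so reads within the overlap cannot be given to Copg2 or Mest.

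**Figure D3:**
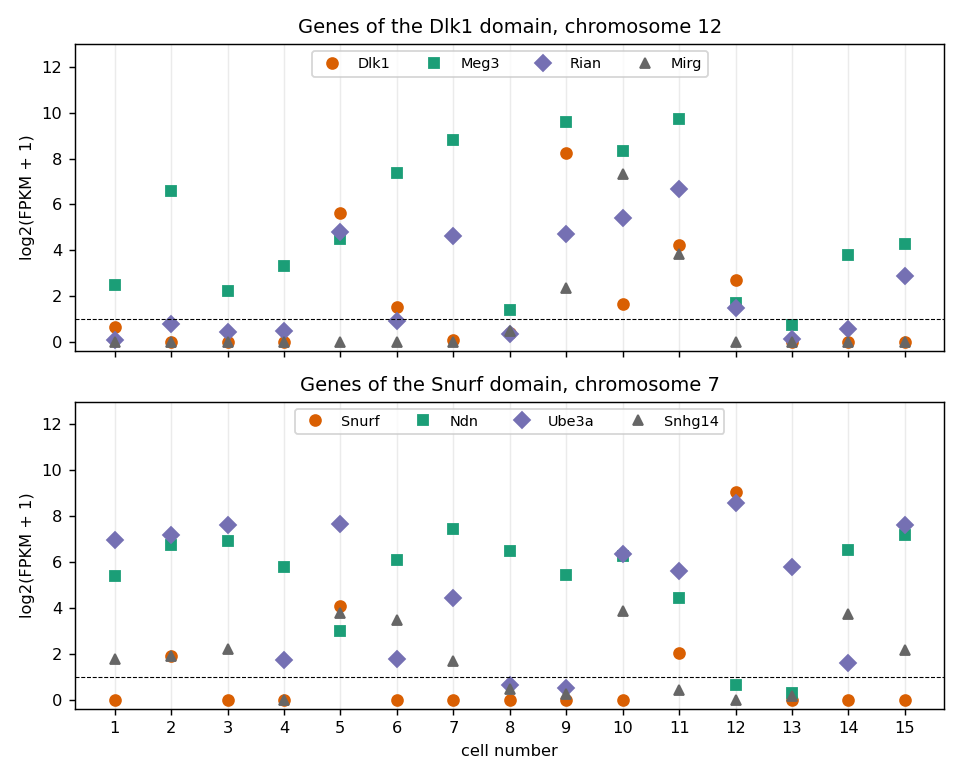
Log2(FPKM + 1) of genes of the Dlk1 domain (top) and of the Snurf domain (bottom) in cells 1 to 15, with the threshold of 1 FPKM as a dashed line. Meg3 lies above the line in 14 of the 15 cells, among them every cell that carried Dlk1. In cell 12, with the highest Snurf (9.06), Ndn lies below the line (0.66).

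Of the 31 other imprinted genes with a row, 14 were carried in 8 or more cells, a share close to that of all rows (46.8%). The 4 genes were carried in 3 to 7 cells, but they were chosen with this known, so no contrast is read from it. Of 33 listed paternally expressed genes 13 had a row. Leaving out the 4 genes, which were chosen with their pattern known, 4 of the other 9 (44.4%) were carried in 8 or more cells, close to the 46.8% of all rows. These were Sgce, Ndn, Snhg14 and Impact. The median over the 9 genes of the median over cells was 0.34, against 0.79 over all rows. Their mean was lowest in cell 12 (0.92), the cell of Nnat and Snurf, and highest in cell 15 (4.39). Sgce, which encodes the membrane protein epsilon-sarcoglycan, was carried in all 15 cells, from 3.26 in cell 5 to 8.37 in cell 9, and Impact, a regulator of translation, in 8. Plagl1, a zinc-finger factor, was carried in 5 cells and was highest in cells 15 (5.74) and 14 (5.51). Airn, the non-coding RNA antisense to Igf2r, was carried in 5 cells with 8.64 in cell 15. Nap1l5 was also highest in cell 15 (6.40), and Inpp5f, a phosphatase gene, was carried in 4 cells with 4.60 in cell 9.

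Of 37 listed maternally expressed genes 22 had a row, and 10 of these (45.5%) were carried in 8 or more cells, close to the share of all rows. Gnas, Cd81, H13 and Commd1 were carried in all 15 cells, with Gnas, a G protein subunit gene, at a median of 7.80. Cdkn1c, an inhibitor of cell division, was carried in cells 5 (7.45), 8 (6.78), 9 (4.28) and 3 (3.60). Grb10, an adaptor that dampens insulin signalling, was carried in 9 cells and was highest in cells 9 (7.17) and 12 (6.63). Igf2r, the receptor that clears Igf2, was carried in 9 cells and reached 4.71 in cell 6. Several of these genes are imprinted only in some tissues, which the values do not show. Igf2, H19, Peg3 and Peg10 were not analysed here.

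Of the 31 imprinted genes other than the 4, between 12 and 20 were carried in a cell, with a median of 16. Cell 9 carried the most of them (20), followed by cell 11 (19), and cell 12 stood at the median (16). In every cell 4369 of all 8446 rows were carried, so no trait of imprinted genes is read from these counts. Cell 9 held the highest value of 4 of the 31, Sgce, Inpp5f, Grb10 and Copg2, and cell 12 of 2, Ube3a and Trappc9. Cells 7, 11 and 15 also held the highest value of 4 each. Of all rows, 6.37% were highest in cell 9 and 6.19% in cell 12. By mean value the 31 genes were at place 5 of the 15 cells in cell 9 (3.14) and at place 10 in cell 12 (2.65), within a range of 2.10 in cell 8 to 3.32 in cell 7. On a list of 17 genes described as a co-regulated imprinted network, 8 had a row beside Mest, Dlk1 and Nnat. The mean of these 8 was highest in cell 9 (5.92), followed by cell 7 (5.41), and at place 14 of the 15 cells in cell 12 (3.04).

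**Figure D4:**
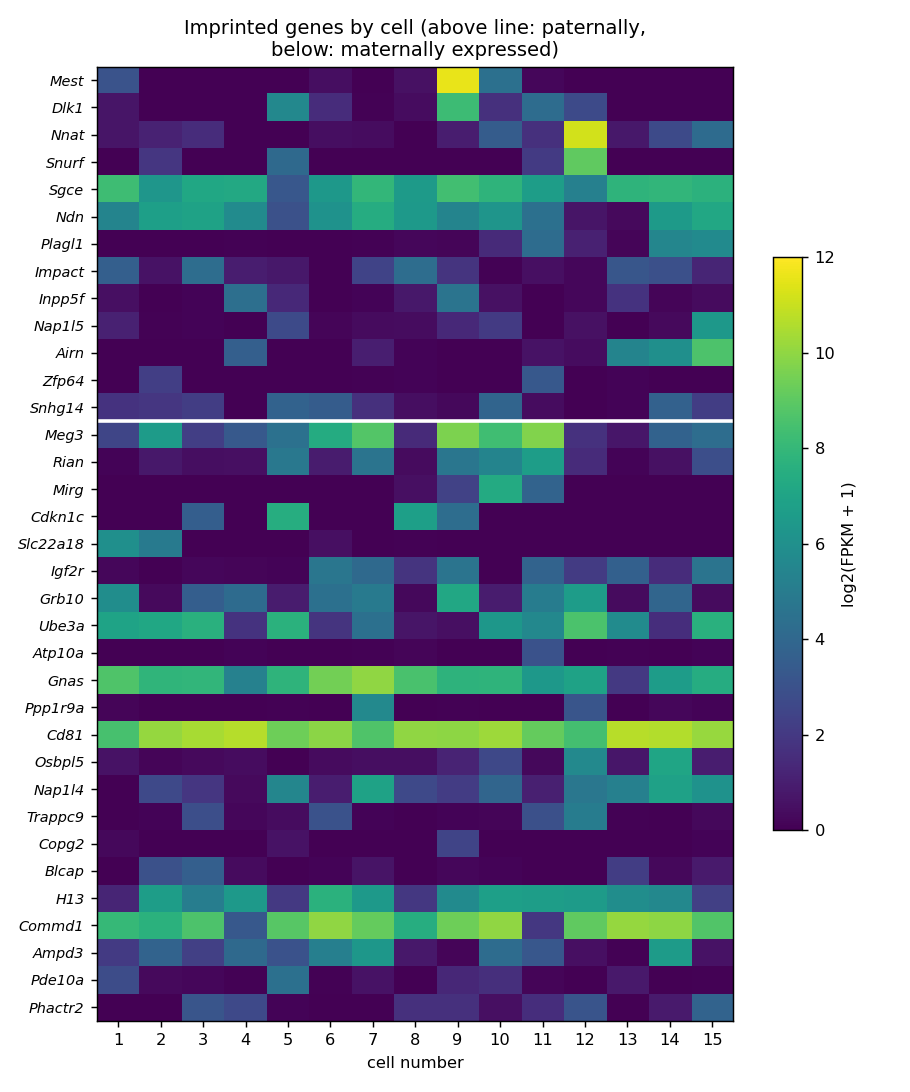
Log2(FPKM + 1) of the 35 imprinted genes with a row (rows) in cells 1 to 15 (columns), with paternally expressed genes above the white line and maternally expressed genes below it. Mest, Dlk1, Nnat and Snurf are dark in most cells and bright in cell 9 or 12, while Sgce, Gnas, Cd81, H13 and Commd1 reach 1 FPKM in all 15 cells.

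Cell 9, the cell of Mest and Dlk1, stood at the low end for lipid genes and at the high end for matrix genes of developing stroma. Fabp4, the fatty acid carrier of fat cells, was at 1.24 in cell 9, against 4.95 to 13.69 in the other 14 cells. Lpl, the lipase that takes up blood lipids, was at 1.19 in cell 9, and the fatty acid transporter Cd36 at 0. Plin2, which coats lipid droplets, was at 6.59, the median over the cells. Both Fabp4 and Lpl, as well as the basement membrane collagens Col4a1 (3.55) and Col4a2 (1.16), had their lowest value there. The mean of the 15 committed-preadipocyte markers was 3.20 in cell 9, the lowest of the 15 cells, although cells 1 (3.23) and 11 (3.30) lay close by. The mean of 17 genes of Wnt signalling and lipid storage, processes in which Mest has been placed, was 1.52 in cell 9, again the lowest, next to 2.95 in cell 10.

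Postn, a matrix protein of growing connective tissue, was at 12.98 in cell 9, against 11.88 in cell 11 and 11.58 in cell 13. Ptn, the growth factor pleiotrophin, was at 10.81 in cell 9 and Tnc, the matrix protein tenascin C, at 7.73, against the next highest values of 7.83 in cell 11 and 4.0 in cell 10. With these 3 genes the mean of the 7 developmental stroma genes was 6.47 in cell 9, followed by 4.69 in cell 11. Cell 9 carried 5 of the 7, while cell 10 carried 6. The rest of the list was mixed in cell 9, with Mdk at 8.53, Cdkn1c at 4.28, Igf2bp2 at 0.86 and Plagl1 at 0.15. Among the 15 genes with a row on a list of Dlk1 partners and targets, 4 were highest in cell 9, against 6.37% of all rows. These were the Notch targets Hes1 (9.20) and Heyl (4.72), Fn1 (9.65), which encodes the fibronectin that Dlk1 binds, and Cfl1. Cell 9 carried 8 of the 15 genes, while cells 3, 4, 8 and 15 carried 12, and its mean (3.95) was second to that of cell 8 (4.17). Adam17, the protease that releases Dlk1 from the surface, was at 0.27 in cell 9, the Notch ligand gene Jag1 at 0.14, and Mapk3, Hes6 and Pparg at 0. Stromal identity genes were present, with Cd34 at 7.71, Pdgfra at 3.96 and Prrx1 at 4.39, and the mean of the stromal list was at place 7 of the 15 cells. The 2 immune markers with a row were at 0 in cell 9.

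Cell 12, the cell of Nnat and Snurf, held the reverse for lipid genes. Its Fabp4 was 13.26, below the 13.69 of cells 4 and 13, and 5 of the 17 Wnt and lipid genes were highest there, against 6.19% of all rows. These were Lpl (10.81), the caveolar coat genes Cav1 (8.96) and Cavin1 (7.95), Dgat1 (7.50), which completes triglyceride synthesis, and Pnpla2 (7.50), the lipase that starts its breakdown. The mean of that list was 5.91 in cell 12, the highest of the cells. The mean of the committed-preadipocyte markers was 7.37 in cell 12, second to 7.87 in cell 6, with 7.13 in cell 4 and 7.08 in cell 15. Pparg, the regulator of fat cell differentiation, was at 5.50, Cd36 at 8.76 and Plin2 at 9.45. Car3, a carbonic anhydrase abundant in fat cells, was at 12.98, against 7.09 in cell 5, the next highest.

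Of 12 listed markers of mature fat cells, 5 had a row, and 3 of these were carried in cell 12, Pnpla2, Scd1 and the fatty acid synthase gene Fasn (3.18). Cfd (0.64) and Acaca (0.12) were not carried there. The mean of the 5 was 3.70 in cell 12, against 0.25 to 2.07 in the other cells, and the desaturase gene Scd1 was highest there (7.05). The part of these markers in the Nnat and Snurf values was not tested, and Adipoq and Plin1 were not analysed here. Cell 12 had the lowest Cd34 of all (2.05), Prrx1 at 0.22, and the second-lowest mean of the stromal list (5.78). It also had the lowest Hes1 (0.95). Of 14 spliceosomal Sm and related genes with a row, the family to which Snrpn belongs, 4 were highest in cell 12, namely Snrpd1, Snrpf, Snrpa and Snrpa1, against 6.19% of all rows. Their mean was 5.82 in cell 12 and 5.62 in cell 11. The mean of the 14 housekeeping genes was also highest in cell 12 (7.39), followed by cell 11 (7.24), so the order was not particular to this family.

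The calcium and endoplasmic reticulum genes, listed because neuronatin sits in that membrane next to the calcium pump, gave no such match with Nnat. Their mean was highest in cell 9 (6.45) and was at place 8 in cell 12 (5.59). Atp2a2, the pump gene itself, was highest in cell 5 (8.34), where Nnat was at 0.

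**Figure D5:**
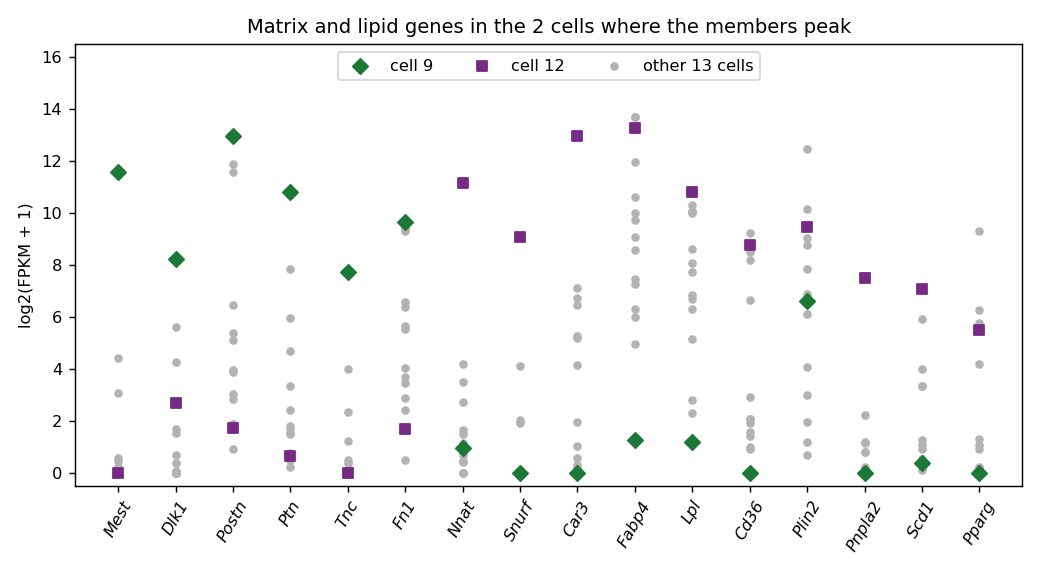
Log2(FPKM + 1) of Mest, Dlk1, Nnat and Snurf and of matrix and lipid genes in cell 9 (green diamonds), cell 12 (purple squares) and the other 13 cells (grey points). Cell 9 is at the top for Postn, Ptn and Tnc and at the bottom for Fabp4 and Lpl, and cell 12 is at the top for Car3, Lpl, Pnpla2 and Scd1.

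The other cells that carried the genes were of mixed kinds. Cell 5, with Dlk1 at 5.62 and Snurf at 4.09, had the highest mean of the mural markers (8.72, against 0.39 to 5.83 in the other cells). The 5 mural markers with a row, out of 9 listed, were all carried there, and Acta2, the actin of smooth muscle cells, stood at 10.23. The part of these mural genes in the Dlk1 and Snurf values of cell 5 was not tested. Cell 11, with Dlk1 at 4.25 and Snurf at 2.03, had the highest stromal mean (8.78). Cell 13 carried none of the 4 genes and had the highest mean of the cell cycle genes (7.01).

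Genes were also ranked by their likeness to each of the 4 over the 15 cells. Mest was most like Tac1, the gene of the neuropeptide substance P, with a rho of 0.90. Tac1 was carried in cells 9 (10.79), 8 (7.53), 10 (4.64) and 1 (2.49), which include all 3 Mest-carrying cells. Dcaf11 (0.88), Mirg of the Dlk1 domain (0.84) and Vps51 (0.82) were also among the most alike. By the overlap of cells at 5 FPKM or more, counted as cells in common over cells in either set, Decr2, Trappc5, Actr3b and Ldah were among 11 rows tied at 0.75.

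Dlk1 was most like Arap1, a regulator of small GTPases, with a rho of 0.91 and a highest value of 5.23 in cell 9. Irs2, the insulin receptor substrate, and Exoc3l4 followed with 0.81 each, then Tpt1 (0.80) and Cys1 (0.79). By overlap 10 rows tied at 0.75, of which Exoc3l4, Filip1l, Gid4, Rad23b and Ttc19 had the highest rho. Tpt1 was carried in all 15 cells with a median of 10.68, so its likeness lies in the order of high values.

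Nnat was most like Sox4, a factor of progenitor cells, with a rho of 0.85. Sox4 was highest in cell 12 (5.82), followed by cell 15 (3.65) and cell 11 (1.09). Poglut1, Rab26os and Krtdap had rho of 0.82, 0.82 and 0.81, and Nrf1 had 0.80. Nrf1 was only 1.44 in cell 12, where Nnat and Snurf peak, and 0 in cell 5, with the second-highest Snurf. It was 4.53 in cell 10 and highest in cell 11 (5.29), and its r with Nnat was only 0.23. The part of Nrf1 in the Nnat and Snurf values was not tested. Igf2bp2, Man1a2, Fas and Cdip1 reached 5 FPKM in exactly the 4 cells where Nnat did, which are cells 10, 12, 14 and 15, and Cxcl2 followed with an overlap of 0.80. Igf2bp2, an RNA-binding protein gene of the Igf2 pathway, was highest in cell 12 (4.30).

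Snurf was most like Deaf1 (0.87), Rnf168 (0.85), Mif4gd (0.83), the splicing factor Rbfox2 (0.83) and Cox6b2 (0.82). Mpv17l2, Sdhaf1, Txnrd2, Smg5 and Cstf3 are 5 of the 10 rows that reached 5 FPKM in exactly cells 5 and 12, as Snurf did.

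A high likeness to some gene is common over 15 cells. Rows carried in 3 cells, as Mest was, had a median highest rho of 0.855 with any other row, and 11.2% of them had a highest rho as high as that of Mest. For Dlk1 the median was 0.843 and the share 5.15%, for Nnat 0.847 and 44.2%, and for Snurf 0.851 and 36.1%. The top likeness of Nnat and Snurf thus lay near the middle of what such rows show. The 10 genes most like the mean of the 4 were Stk39 (0.87), Ubr2 (0.87), Tnrc6b, Rc3h1, Fastkd2, Maml1, Kansl1, Nus1, Traf7 and Tfe3 (0.73). Fastkd2, a mitochondrial RNA-binding protein gene, was the highest of these, at 9.49 in cell 9.

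Lastly, all rows were ordered by how far cell 9 or cell 12 stood above the next highest cell, a measure chosen after the values were seen. Mest came at rank 2 in cell 9 with its 7.16, after C1qtnf3, a secreted factor gene, with 8.65 (9.59 in cell 9 against 0.94 in cell 1). Ddah1, Evi2a, Ets2, Elovl6, Bcl3, Uck2, the glucose transporter gene Slc2a1 and Rell1 followed, and Dlk1 was at rank 71. Elovl6, a fatty acid elongase gene, was at 6.14 in cell 9 and at 0.86 at most elsewhere, although Fabp4, Lpl and Cd36 were low there. In cell 12 Nnat came first with 6.98. Phtf2, Car3, Zbtb17, Cntrob, Trmu, Pnpla2, Arv1 and Tamm41 followed, and Snurf was at rank 10 with 4.97.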

How the data were processed

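RNA of 15 single Tomato+ cells was made into libraries using the SMART-Seq v4 3' DE kit, then Nextera XT, per the labels' protocols. The authors used TopHat2, Cufflinks and GRCm38, per the submitters' processing notes; for their versions, the sources used here give none. The deposited table names FPKM, but its values are on a log2 scale ending at 13.69. As log2(FPKM + 1) they sum to a mean of 592948 FPKM per cell, and as natural logarithms to 12675700, so the log2 base was inferred. Sorted deposited values of the cells were equal within 0.0354 above 0.2, so the deposited log2 values had been quantile-normalized, which fixes the number of rows above a threshold in every cell. Read depth is unknown. Of 8446 rows 8431 had an identifier in the reference gene table, and 18 unnamed columns held no values. Cells were tied to columns by the number in the title.

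A cell carried a gene at 1 FPKM, with 5 and 10 FPKM as alternatives. Likeness was Spearman's rho over 15 cells, or the overlap of cells at 5 FPKM, over 7425 rows carried in at least 3 cells. Named were the 4 genes, listed imprinted genes, genes of their domains, the 5 most alike by each measure (ribosomal, mitochondrial and predicted genes left out), the 10 most like the mean of the 4, and listed context genes highest in a peak cell. Genes at the low end of cells 9 and 12, and the other context genes given with values, were named after their values were seen. A gene that the rule names for Mest is not reported here. Members and gene lists were chosen with earlier results of these data known. Intervals are exact Clopper-Pearson. Python 3.11.15, numpy 2.4.6, pandas 2.3.3 and scipy 1.17.1 were used. No test was run, since the cells form 1 sample.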

Additional observations from a re-analysis of the deposited data

How the results depend on the processing

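The peak cell of each gene does not depend on a threshold, but counts of carrying cells do. Of 140 alternatives, 73 were labelled the same and 67 moved. A count was the same when it lay within 1.5 times the reported one. The counts of imprinted genes below are over the 13 paternally and 22 maternally expressed genes with a row, the 4 genes included. The share of all rows in these alternatives is not given here, so nothing about imprinted genes is read from the shifts of these counts. Coefficients labelled the same could still shift, as for Mest and Dlk1 from 0.56 to 0.36 and for Mest and Snurf from −0.19 to −0.39. The coefficients at or next to 0 changed sign: Mest and Nnat (0.0019) lay between −0.154 and −0.017 in all 5 alternatives, and Dlk1 and Nnat (0.00) between −0.037 and 0.218. The other 4 pairs kept their sign in all 5. At 5 FPKM, Nnat was carried in 4 cells and Snurf in 2, no gene in 7 cells, and 2 paternally expressed genes were carried in 8 or more cells. At 10 FPKM, Dlk1 and Nnat were each carried in 3 cells and Snurf in 2, no gene in 9 cells, and again 2 paternally expressed genes reached 8 cells. With every value above a cell's lowest counted, Mest was carried in 6 cells and Nnat in 12, at least 2 of the genes in 10 cells and none in 1 cell, and 10 paternally and 17 maternally expressed genes reached 8 cells. With 1% of a gene's highest FPKM required as well, Mest and Nnat were carried in 1 cell each and Snurf in 2, at least 2 of the genes in 3 cells and none in 11. Without the 3 cells with the most rows at their lowest value, 2 paternally expressed genes reached 8 of the 12 cells left. That is a stricter cut than 8 of 15 cells. Nnat and Snurf had a Pearson r of 0.738 against a rho of 0.247. Of the 5 genes most like each, Pearson's r kept 0 for Mest, 1 for Dlk1, 1 for Nnat and 0 for Snurf. Without the filter on carrying cells, 2 were kept for Mest, 3 for Nnat and 3 for Snurf. With 5 carrying cells required, 2 were kept for Mest, 2 for Dlk1 and 3 for Nnat. Leaving out each cell in turn kept between 2 and 5 genes for Mest, 1 and 5 for Dlk1, 1 and 4 for Nnat, and 2 and 5 for Snurf, so these names rest on single cells. The cause of these shifts was not tested. No paired analysis was possible because the cells form 1 group.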
